A study of Arabidopsis thaliana with 2 samples.

Results

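The data concern 3 Arabidopsis thaliana genes, AT3G04500, AT3G12640 and AT2G33435, each annotated as an RNA-binding protein with an RNA recognition motif, and the 4 splicing events listed for them. The genes were chosen by their change in splicing between the lefko mutant and wild type, and every row of the 5 deposited event tables that carries one of their gene identifiers was taken. This gave 4 of 343 events and 3 of 281 genes. The 4 events lie on 3 introns, since an alternative 3' splice site event and an intron retention event of AT3G04500 share an intron. The other events are an alternative 3' splice site in AT3G12640 and a skipped exon in AT2G33435. The tables hold only events past an adjusted p of 0.05 in the authors' own comparison, so an event just outside that limit is not shown in the files.

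RNA came from cotyledons, the seed leaves, of lefko seedlings and of wild-type Col-0 seedlings, and both genotypes share the Col-0 background and the same medium, on vertical plates under long days. The labels name the mutant in more than one way, with lefko2 as the sample title and lefko1 in the extraction text and column headers, and the source field of both samples names seeds. Neither the mutated gene nor the age of the seedlings is stated in the labels. The labels give 1 sample per genotype, while each count cell holds 3 counts, here called count sets. Nothing says whether the sets came from separate plants, so each SD below measures the spread between sets and may be technical. The same limit holds for each SE of a change, which was computed from these SDs as if the 3 sets of a genotype were independent.

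An RNA recognition motif is a small domain that binds single-stranded RNA through a pair of short conserved stretches, RNP1 and RNP2. Plants have a large family of genes with this domain, and many of them are known to be spliced into more than 1 form, some with a stop codon ahead of the usual one. Transcripts in which such a stop lies well upstream of an exon junction are often broken down by nonsense-mediated decay, while transcripts that keep an intron can be held in the nucleus. Neither fate was measured here.

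The sequences that differ between the forms are shown first, because they hold the stop codons that the results on reading frame turn on. The downstream 3' splice site of AT3G04500 is shown for comparison and holds no marked stop. All are in the direction of transcription, from the TAIR10.1 reference. In AT3G04500, on the minus strand, the upstream 3' splice site and the bases behind it lie at chr3:1212676-1212755, the downstream site at chr3:1212557-1212586, and the start of the retained intron at chr3:1212798-1212843. In AT3G12640, on the plus strand, the stretch between both 3' splice sites lies at chr3:4015390-4015615 with its flanks. In AT2G33435, on the plus strand, the exon lies at chr2:14170126-14170241 with 20 bases of intron on either side. Capitals mark the 2 intron bases at each splice site and the first in-frame stop codon.
AT3G04500 upstream 3' splice site: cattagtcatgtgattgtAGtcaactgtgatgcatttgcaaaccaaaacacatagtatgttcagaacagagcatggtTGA
AT3G04500 downstream 3' splice site: agtcttatttaccatgacAGgtcattagag
AT3G04500 retained intron: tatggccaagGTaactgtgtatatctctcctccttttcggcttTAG
AT3G12640 stretch: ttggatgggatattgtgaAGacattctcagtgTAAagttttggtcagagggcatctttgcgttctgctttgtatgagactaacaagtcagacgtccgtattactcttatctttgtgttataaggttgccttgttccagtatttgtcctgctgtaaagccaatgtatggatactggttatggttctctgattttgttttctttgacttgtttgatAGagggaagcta
AT2G33435 exon: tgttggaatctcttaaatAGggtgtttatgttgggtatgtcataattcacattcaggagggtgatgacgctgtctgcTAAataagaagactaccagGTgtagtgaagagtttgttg

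In all 4 events the form that carries the extra sequence took a larger share of the reads in lefko than in wild type. The inclusion share is the percentage of an event's reads that support the included stretch, and a change is lefko minus wild type in percentage points. It was higher in lefko in 4 of 4 events, and over all listed events it was higher in 77.8%. The 3 lefko sets did not overlap the 3 wild-type sets in any of the 4 events, which held for 91.8% of all listed events. Since the genes were picked for this contrast, these shares describe the genes and no test was run on them. All 4 events had at least 20 reads in each of the 6 sets. Among the 245 listed events with that depth, inclusion was higher in lefko in 86.5%.

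**Figure D1:**
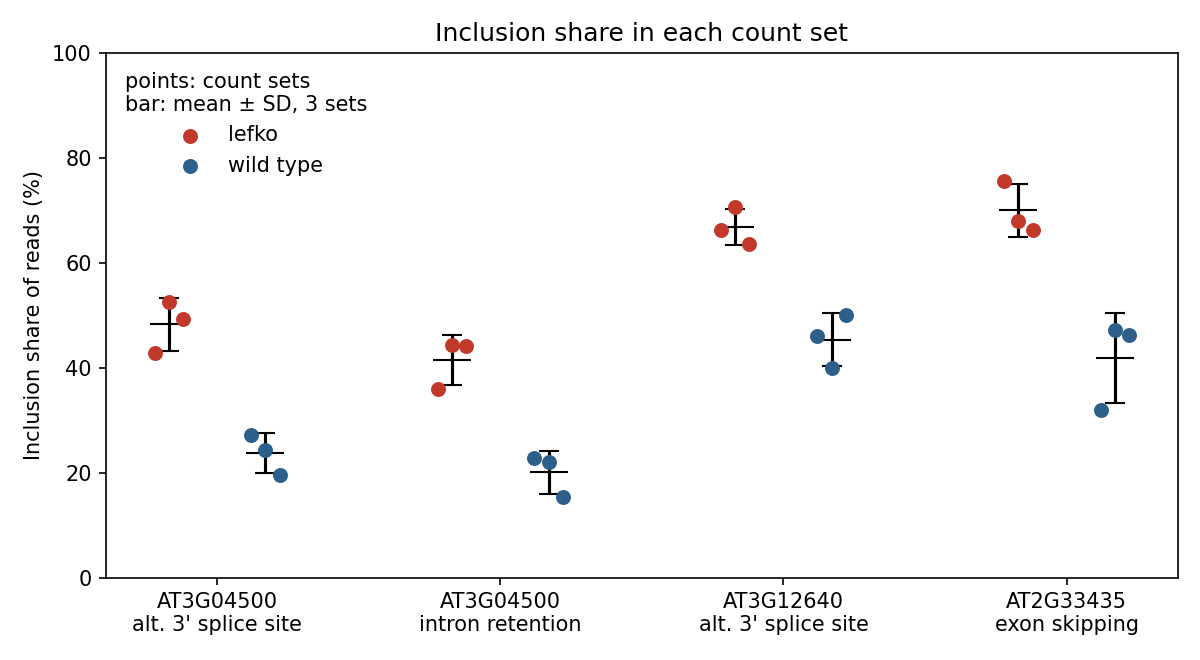
Inclusion share of reads (vertical axis, percent) in each of the 4 events, for lefko (left of each pair) and wild type (right), with points for the 3 count sets and a bar for their mean ± SD. In AT2G33435 the lefko sets lie between 66.2% and 75.7% and the wild-type sets between 31.9% and 47.3%, and no pair overlaps.

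AT3G04500 encodes a protein of 245 amino acids with 1 match to the RNP1 pattern. The gene spans 1211762 to 1213907 on the minus strand of chromosome 3, and the changed intron, intron 3 of 5 in the transcript used here, runs from 1212567 to 1212833 within the coding sequence. Use of the upstream 3' splice site, at 1212736, adds 169 nt to the next exon. The inclusion share of this event was 42.8%, 52.6% and 49.4% in the lefko sets and 27.2%, 24.2% and 19.7% in the wild-type sets. The mean was 48.2% ± 4.96 in lefko and 23.7% ± 3.82 in wild type (SD, 3 sets each), a change of 24.5 points (SE 3.62). Every lefko set was thus above every wild-type set. In the authors' deposited table the event had an adjusted p of 1.61e-06.

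Retention of the whole 267-nt intron was listed for AT3G04500 as well. Its share was 35.9%, 44.3% and 44.1% in the lefko sets, against 22.8%, 22.1% and 15.3% in the wild-type sets. The mean was 41.4% ± 4.76 in lefko and 20.04% ± 4.14 in wild type, a change of 21.4 points (SE 3.64), and its adjusted p was 0.00857 in the authors' deposited table. Both events of AT3G04500 use the same skipping reads, 255, 185 and 198 in lefko and 251, 247 and 233 in wild type, so they are not independent. The 2 events also share the boundary at the downstream exon, where a read from either form could count, and how reads were assigned is unknown here. Reads for the longer exon exceeded reads for retention by 48, 58 and 37 in the lefko sets and by 20, 9 and 15 in the wild-type sets. How many reads came from each form separately was not resolved by these counts.

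In AT3G12640 the change fell on an intron that follows the first part of the coding sequence. Besides the RNA recognition motif, the reference annotation gives this protein a PWI domain, a fold found in several splicing factors, and a role in mRNA processing. The gene spans 4014047 to 4017869 on the plus strand of chromosome 3, and the intron runs from 4015304 to 4015605. An upstream 3' splice site at 4015409 adds 196 nt to the next exon. The inclusion share for the longer form was 66.3%, 70.6% and 63.6% in the lefko sets and 46.0%, 40.0% and 50.0% in the wild-type sets. It averaged 66.8% ± 3.52 in lefko and 45.3% ± 5.04 in wild type (SD, 3 sets each), a change of 21.5 points (SE 3.55). Every lefko set was above every wild-type set. As in AT3G04500, a read from the unspliced intron could count at the boundary with the downstream exon. How many inclusion reads came from use of the upstream site was therefore not resolved. On the other scale that the counting rule leaves possible, with inclusion reads divided by 2, the inclusion share averaged 50.3% in lefko and 29.4% in wild type. The authors' deposited table gave it an adjusted p of 0.00109.

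AT2G33435 encodes the largest of the 3 proteins, with 1325 amino acids, and its closest Arabidopsis match in the reference annotation is a large subunit of U2AF, the factor that recognises 3' splice sites. The gene spans 14165125 to 14173509 on the plus strand of chromosome 2. A 76-nt exon at 14170146 to 14170221 lies within intron 3 of 9, which is 1815 nt long. The exon was included in 75.7%, 68.0% and 66.2% of reads in the lefko sets, against 31.9%, 47.3% and 46.3% in the wild-type sets. The mean was 70.0% ± 5.01 in lefko and 41.8% ± 8.60 in wild type (SD, 3 sets each), a change of 28.2 points (SE 5.75). This was the largest change of the 4 events and also the one with the fewest reads, 310 in lefko and 156 in wild type. For this exon the authors' deposited table listed an adjusted p of 0.0128.

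The precision that these depths allow was computed from the reads summed over sets, as exact (Clopper-Pearson) 95% intervals that cover counting error only. For the exon of AT2G33435 the interval was 64.9% to 75.4% in lefko and 34.4% to 50.5% in wild type. For the longer form of AT3G12640 it was 63.5% to 70.9% in lefko, on 654 reads, and 40.8% to 50.0% in wild type, on 467 reads. For the longer form of AT3G04500 it was 45.2% to 50.8% in lefko, on 1227 reads, and 21.3% to 26.8% in wild type, on 961 reads. The spread between the 3 sets of a genotype, as a chi-square per degree of freedom that is near 1 where sets differ by counting error alone, was 4.16 in lefko and 2.51 in wild type for the longer form of AT3G04500. It was 1.26 in lefko and 1.37 in wild type for AT3G12640, and 1.22 in lefko and 1.49 in wild type for AT2G33435.

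In raw reads, the genotypes differed more in inclusion reads than in skipping reads. Because these counts are not scaled to library size, they cannot tell a gain of the included form from a loss of the skipping form. Inclusion reads for the longer exon of AT3G04500 numbered 191, 205 and 193 in lefko, against 94, 79 and 57 in wild type, which is 2.56 times as many in the sum. The inclusion reads of AT3G12640 were 136, 187 and 117 in lefko and 93, 54 and 65 in wild type, a ratio of 2.08. The exon of AT2G33435 had 84, 83 and 51 inclusion reads in lefko and 15, 26 and 25 in wild type, a ratio of 3.30. Every lefko set held more inclusion reads than any wild-type set in 4 of 4 events, the retention event of AT3G04500 included, as in 64.7% of all listed events.

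Skipping reads, which mark the junction that leaves out the stretch, differed less between the genotypes in these raw counts. In AT2G33435 they numbered 27, 39 and 26 in lefko and 32, 29 and 29 in wild type, a ratio of sums of 1.02. In AT3G12640 they numbered 69, 78 and 67 in lefko and 109, 81 and 65 in wild type, a ratio of 0.839. In AT3G04500 the ratio was 0.873. The skipping reads of the genotypes overlapped in all 3 genes. Summed skipping reads were within 1.5 times of wild type in all 4 events, as in 65.1% of 212 listed events with higher inclusion in lefko and no set under 20 reads. Both events of AT3G04500 use the same skipping reads, so the 4 events hold only 3 distinct skipping junctions. The limit of 1.5 was set after the reads had been seen.

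The read ratios are not scaled to library size, because no total for a whole library was at hand. A set held between 166819 and 178604 reads over the listed events in lefko and between 168946 and 187225 in wild type. Without RBCS1B, a gene for the small subunit of Rubisco, the sums were 161461 to 172083 in lefko and 131558 to 145455 in wild type. Over 238 listed events with no set under 20 reads and with both kinds of reads in both genotypes, the median ratio of lefko to wild type was 2.12 for inclusion reads and 0.904 for skipping reads. Of these 238 events, 26 had a larger inclusion ratio than the exon of AT2G33435, 65 a larger one than the longer exon of AT3G04500, and 125 a larger one than AT3G12640. By this ratio AT3G12640 was near the middle of the 238 events and AT2G33435 towards their upper end. The ratio of total reads was 1.99 for AT2G33435, with 34 of the 238 events above it. It was 1.40 for AT3G12640 and 1.28 for the longer exon event of AT3G04500, against a median of 1.37. The order by inclusion reads therefore does not rank the events by change in inclusion share.

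**Figure D2:**
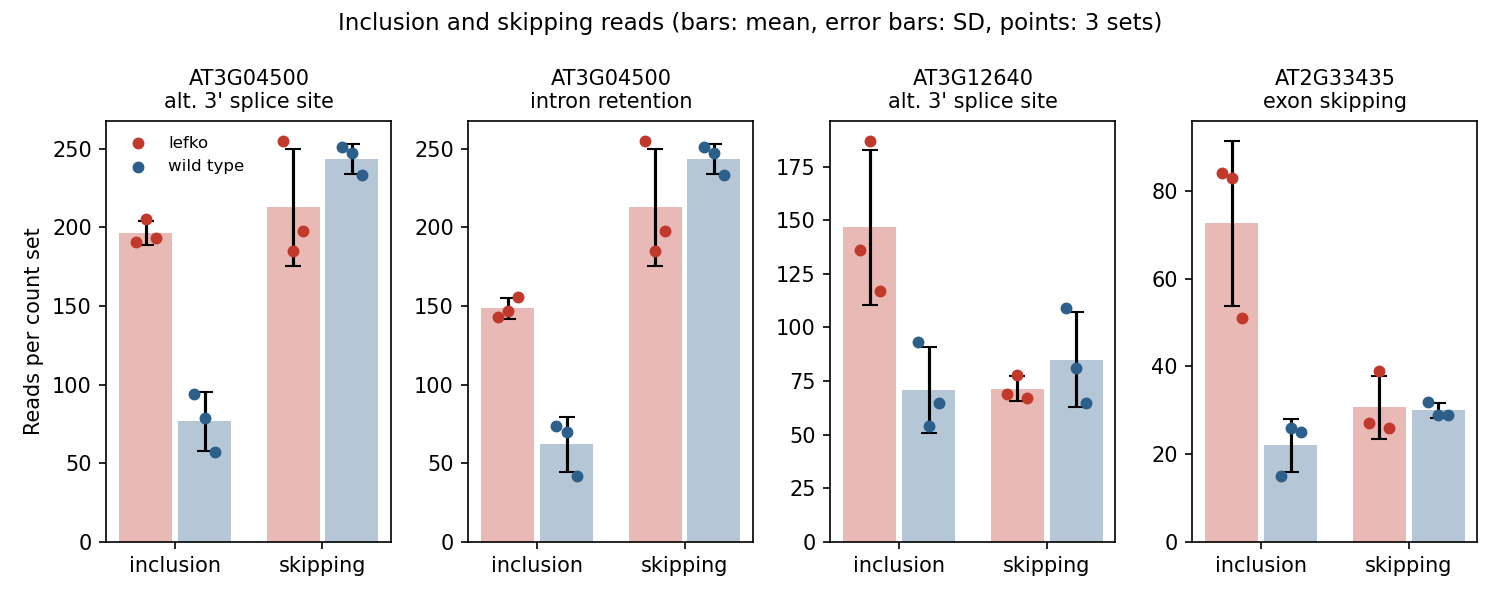
Inclusion and skipping reads per count set (vertical axis, reads) in each event, lefko left and wild type right, with bars for the mean, error bars for the SD and points for the 3 sets. Inclusion reads of AT2G33435 averaged 72.7 in lefko and 22 in wild type, while its skipping reads averaged 30.7 in lefko and overlapped those of wild type, at 30.

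Every included form met a stop codon within the added sequence. How often this holds over all listed events was not computed, so it is not shown to be particular to these genes. In the longer exon form of AT3G04500 the first in-frame stop, TGA at 1212676 to 1212678, came 57 nt into the added stretch. The predicted product has 186 amino acids, of which the first 167 match the full-length protein. With the whole intron retained the stop was TAG at 1212798 to 1212800, 33 nt into the intron, and the predicted product has 178 amino acids, 168 of them shared. The retained intron of 267 nt is a multiple of 3, so it keeps the frame and ends it by its own stop, while the 169 nt of the longer exon would shift the frame as well.

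The longer form of AT3G12640 reached TAA at 4015422 to 4015424 after only 12 nt of the added stretch. Its predicted product has 200 amino acids, against 662 for the skipping form of the same transcript, and 196 of them are shared, which is 29.6% of the protein. In AT2G33435 the exon held TAA at 14170203 to 14170205, after 57 nt, and its predicted product has 985 amino acids, of which 966 are shared (72.9%). The 76-nt exon and the 196-nt stretch are not multiples of 3, so both would also shift the frame. Over all listed events 21 of 27 skipped exons and 31 of 50 alternative 3' splice site stretches were no multiple of 3, so this was the usual case.

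These stops lie far from the end of the transcript. From the stop to the last exon junction the distance was 292 nt in the longer exon form of AT3G04500 and 414 nt in its retained form, with 2 junctions behind each stop. It was 1318 nt in AT3G12640, with 5 junctions behind the stop, and 501 nt in AT2G33435, with 7. In the skipping forms of all 3 genes no junction followed the normal stop.

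The point where each protein would break off was also set against the RNA recognition motif. The RNP1 match of AT3G04500 begins at amino acid 178, beyond the last residue shared by either included form. AT3G12640 has 1 match to the RNP2 pattern, at amino acid 506, and AT2G33435 has 1 at amino acid 991, both beyond the shared part. None of the 4 included forms kept a match to either pattern. No full-length protein matched both patterns, however. AT3G04500 had no RNP2 match, and AT3G12640 and AT2G33435 had no RNP1 match. Loss of the unmatched part of the motif could therefore not be judged. The patterns were chosen with the events known, and a motif that departs from them would not be found.

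**Figure D3:**
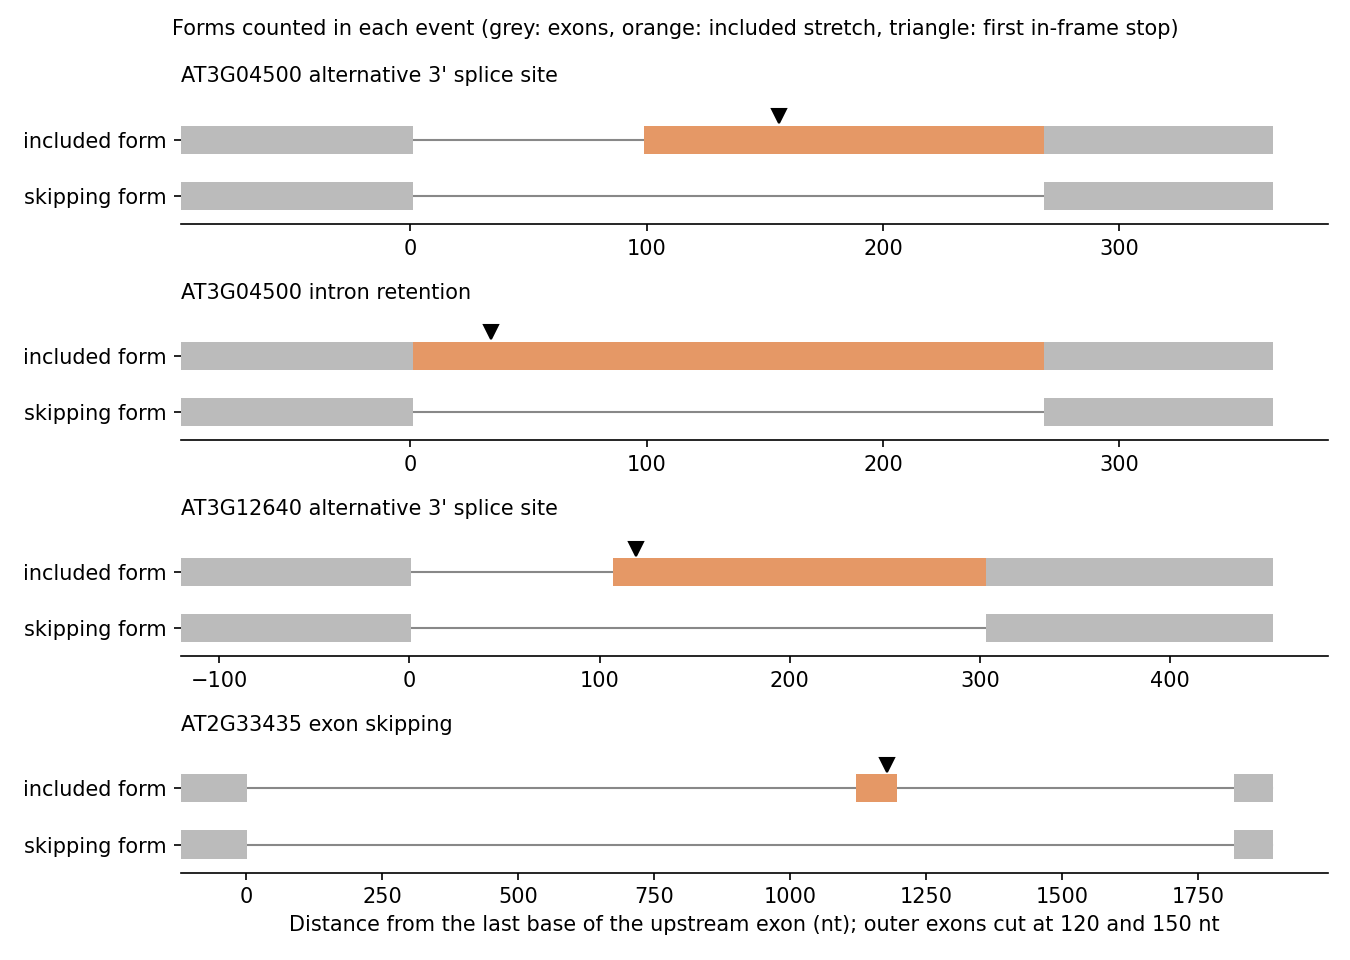
Exons (grey), included stretch (orange) and first in-frame stop (triangle) of the included and the skipping form in each event, by distance from the last base of the upstream exon in nt. The stop lies 12 nt into the stretch of AT3G12640, 33 nt into the retained intron of AT3G04500, and 57 nt into the other 2 stretches.

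The included forms differ in whether the reference annotation (RefSeq, TAIR10.1) already holds them. AT3G04500 has an annotated transcript with the upstream 3' splice site and another in which the whole intron is exonic, and both of their annotated coding sequences end at the stops given above. No annotated transcript of AT3G12640, of 4, uses the upstream site. The single annotated transcript of AT2G33435 lacks the 76-nt exon. Over all listed events the included site was missing from the annotation in 17 of 50 alternative 3' splice site events and the exon in 11 of 27 exon skipping events, so both kinds are common in these tables.

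All splice sites of the 4 events keep the usual GT and AG ends. The match of each 3' splice site to the average annotated site was scored as a sum of log2 odds per base, and set against 131013 annotated introns of protein-coding genes. In AT3G04500 the upstream site, which gives the longer exon, scored 5.12 (percentile 23.0) and the downstream site 6.99 (percentile 46.6). In AT3G12640 the upstream site scored 3.91 (percentile 13.0) and the downstream site 4.82 (percentile 20.2). The 3' splice site in front of the AT2G33435 exon scored 3.73 (percentile 12.0), and the competing site behind the long intron 8.38 (percentile 67.04).

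In each of the 3 genes the site that gained share in lefko had the lower score of the pair. This was so in 26 of all 50 listed alternative 3' splice site events and in 22 of 27 exon skipping events. The 5' splice site behind the AT2G33435 exon scored 5.89 (percentile 31.3), above that of the exon upstream, at 4.59 (percentile 15.0). The introns removed by skipping were 267, 302 and 1815 nt long, against a median of 101 nt over all annotated introns. No 30-base window of any included stretch occurs elsewhere in the nuclear chromosomes, and no other annotated gene overlaps the 3 introns.

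Ranks within each class, from the highest increase in lefko down, are again a description, since the genes were picked for their change. The exon of AT2G33435 ranked 1 of 18 exon skipping events that had 20 or more reads in every set, and 5 of 27 without that limit. Among the 34 alternative 3' splice site events with that depth AT3G04500 ranked 2 and AT3G12640 ranked 4, where the median change was 13.2 points, and without the limit they ranked 6 and 8 of 50. One event of that class fell by 94.7 points, a larger change in size than any of these. The retention event of AT3G04500 ranked 57 of 160, near a median of 18.6 points. Its nearest neighbours among all 214 retention events changed by 21.6 and 21.3 points.

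**Figure D4:**
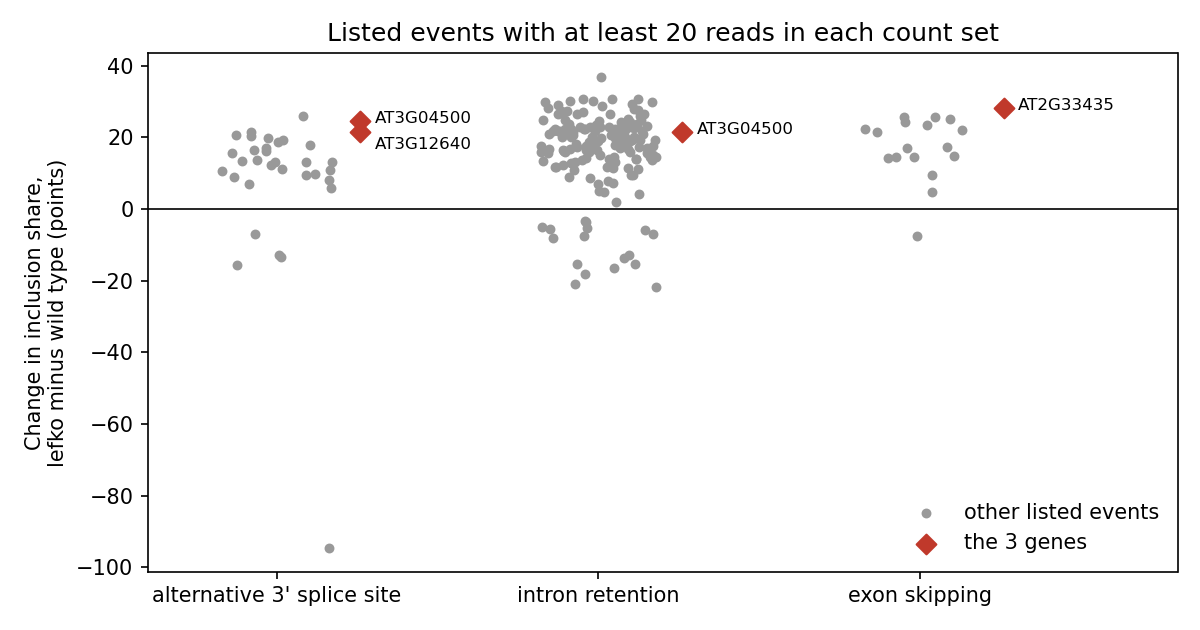
Change in inclusion share, lefko minus wild type (vertical axis, percentage points), of listed events that had 20 or more reads in every set, by class, with the 3 genes as diamonds and other genes as grey points. AT2G33435, at 28.2 points, is the highest of 18 exon skipping events, while the retention event of AT3G04500, at 21.4 points, lies within the bulk of its class.

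Other genes described as RNA-binding in the reference annotation were also listed. Of 464 protein-coding genes with that description, 21 (4.53%) had a listed event, the 3 genes among them, against 275 of all 27444 protein-coding genes (1.00%). Without the 3 genes the share was 18 of 461 (3.90%). An annotated intron was present in 449 of the 464 genes and in 22242 of all 27444, and genes without one remain in both shares. Inclusion was higher in lefko in all 38 of their events, against 77.8% of all listed events. All of the 38 except the event of AtRZ-1b had at least 20 reads in each count set. Among all 245 listed events with that depth the share was 86.5%. How deeply the genes of each gene set were read was not compared, and events of 1 gene often share skipping reads, so the 38 are not independent. The other 18 genes had 34 events with a median change of 16.7 points and a range of 6.997 to 53.4. Among these 18 are genes for known splicing factors, such as U1-70K and the SR proteins SR30 and RS41.

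Retention of an intron of RBP47C', which encodes a protein with RNA recognition motifs, was 32.1% ± 1.38 in lefko and 15.9% ± 0.429 in wild type. AT1G76940, which has the same description in the annotation as AT3G04500, had a retained intron at 38.01% ± 1.90 in lefko and 21.0% ± 0.912 in wild type. The change of 53.4 points belonged to the longer form of AtRZ-1b, at 87.2% ± 11.8 in lefko and 33.8% ± 21.5 in wild type on only 35 and 23 reads. A list of 22 nuclear RNA-binding protein genes was written for this comparison, including PTB, UBP1, RBP45 and glycine-rich protein genes. Of these, 1 (4.55%) was listed, against the same 1.00% of all protein-coding genes. This was FLK, a regulator of flowering with KH domains, which had a retained intron at 84.1% ± 0.518 in lefko and 72.4% ± 3.97 in wild type. FLK is also one of the listed genes described as RNA-binding above, so the shares of the gene sets are not independent. Whether the other 21 genes of that list of 22 were unchanged or were too thinly covered cannot be told.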

How the data were processed

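RNA-seq libraries of lefko and wild-type cotyledons are the source of the data, and the submitters' processing notes name HISAT2 2.0.4 and TAIR10. No label or header says which program called the events or how it counted reads. Per the file headers, the authors deposited inclusion and skipping read counts for each event with a p-value and an FDR, the adjusted p. A count cell holds 3 whole numbers, taken as 3 count sets per genotype. No 2 sets were identical, and over listed events with at least 20 reads a set the chi-square per degree of freedom between sets was 3.85 in lefko and 3.74 in wild type, so they were kept apart.

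The share per set, its mean and SD, and exact 95% intervals were computed with Python 3.11.15, NumPy 2.4.6 and SciPy 1.17.1. Table starts count from 0 (852 of 1038 exon entries matched an annotated exon after adding 1, and 1 before). All 281 gene identifiers matched the TAIR10.1 annotation. Each form was translated from the annotated start with Biopython 1.88, using the first annotated transcript with the skipping junction. The genes, the list of RNA-binding proteins and the measures were chosen with earlier results of these data known. Named genes are the 3 genes, that list, and listed genes described as RNA-binding. No test was run, since the events were picked for this contrast. Alternatives were reads summed over sets, inclusion reads divided by 2, log2 odds with 0.5 added, leaving out each set, an FDR of at most 0.01, a minimum of 20 reads, and other transcripts.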

Additional observations from a re-analysis of the deposited data

How the results depend on the processing

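In all 4 events the change kept its direction under every alternative run. Leaving out each count set in turn gave 22.4 to 27.3 points for the longer exon of AT3G04500, 18.999 to 24.1 for its retention, 18.8 to 23.8 for AT3G12640 and 23.2 to 30.9 for AT2G33435. Dividing inclusion reads by 2, since an included stretch has 2 boundaries, lowered the change in AT3G04500 to 18.4 points for the longer exon (31.9% in lefko and 13.5% in wild type) and to 15.0 points for retention (26.2% in lefko and 11.2% in wild type). It moved AT3G12640, at 20.8 points, and AT2G33435, at 27.3, by less than the SD between sets, but the exon of AT2G33435 then held 54.0% in lefko and the longer form of AT3G12640 50.3%. Which scale applies was not settled, as the counting rule is unknown. Events with higher inclusion in lefko numbered 186 of 233 at an FDR of at most 0.01 and 212 of 245 with at least 20 reads in each set. The included form of AT3G12640 gave 176 amino acids in 1 of its transcripts and 200 in the other 3. No paired analysis was possible because the labels give no replicate numbers and no test was run. With 47 to 55 reads per wild-type set, depth limits AT2G33435 most.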
